A study of Mus musculus with 32 samples.

Results

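The phagocyte NADPH oxidase was followed through its subunit genes Cybb, Cyba, Ncf1, Ncf4 and Rac2, together with Nox4, which encodes a related oxidase catalytic subunit. These 6 genes were taken by name from a table of 49671 genes, and were chosen by their levels and differences in these libraries, known from earlier results, so their values are given with errors as a description, and the counts of called genes among them carry no weight as tests in any comparison. All 6 passed the low-count filter at both times. Nox4 is not a part of the phagocyte complex. It is counted among the 6, and medians are also given for the 5 phagocyte subunits alone.

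Wild-type C57BL/6 cortical neurons, prepared from the forebrains of embryonic day 17 to 18 mice, received either no addition or 10 µg/mL of 1 oligoribonucleotide. The additions were miR-124-5p, Mut.oligo (the control sequence) or miR-92a-1-5p, each for 6 h or 5 d. Each of the 8 groups (treatment by time) held 4 libraries, 32 in all. Libraries carry experiment batch labels, lettered here for each time point, which do not say which step of the work a batch shared. No batch held libraries of both times. At 6 h, miR-92a-1-5p shared a batch with untreated cells in 4 batches, miR-124-5p in 2 and Mut.oligo in 2; at 5 d these numbers were 2, 2 and 3. The labels do not say that libraries of a group came from separate litters, so the spread below is the spread between libraries.

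The phagocyte NADPH oxidase passes electrons from NADPH across a membrane to oxygen and releases superoxide. Its membrane part, flavocytochrome b558, pairs the catalytic subunit gp91phox, encoded by Cybb, with p22phox, encoded by Cyba. In resting cells the cytosolic subunits, among them p47phox (Ncf1) and p40phox (Ncf4), are apart from it, and they join the membrane part on activation together with a GTP-bound Rac protein, Rac2 in blood phagocytes. In the brain the complex is best known from microglia, where pattern recognition receptors can prime it. Nox4, in contrast, also needs p22phox but makes hydrogen peroxide without the cytosolic subunits.

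The oligoribonucleotide named after miR-92a-1-5p is shown because the results below turn on it. The mature sequence in RefSeq lies on GRCm38.p6 at chr14:115044437-115044459, plus strand, and is 23 bases long, with its seed (bases 2 to 8) in capitals.
miR-92a-1-5p: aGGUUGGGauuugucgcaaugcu
The letters CCCAACC, the complement of that seed, were absent from the longest annotated 3′ UTR of each of the 6 genes, and were present in 8.70% of the 21669 genes with such a UTR.

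Promoter windows from 250 bases before to 50 bases after the RefSeq start were at hand for Cybb, Cyba, Ncf1 and Nox4, and those of both catalytic subunits are shown. The windows were searched on both strands for GAGGAA, a core recognised by PU.1 (Spi1), and for GGAA followed after 2 free bases by GAAA, the composite element of ETS and IRF factors, and matches are in capitals. The Cybb window lies at chrX:9469275-9469574 on the minus strand and the Nox4 window at chr7:87246399-87246698 on the plus strand (GRCm38.p6).
Cybb: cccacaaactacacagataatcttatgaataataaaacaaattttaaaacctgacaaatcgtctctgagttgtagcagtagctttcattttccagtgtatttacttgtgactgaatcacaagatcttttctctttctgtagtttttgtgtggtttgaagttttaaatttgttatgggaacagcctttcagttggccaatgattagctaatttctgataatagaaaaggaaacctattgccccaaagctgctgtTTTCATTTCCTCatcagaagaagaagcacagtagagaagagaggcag
Nox4: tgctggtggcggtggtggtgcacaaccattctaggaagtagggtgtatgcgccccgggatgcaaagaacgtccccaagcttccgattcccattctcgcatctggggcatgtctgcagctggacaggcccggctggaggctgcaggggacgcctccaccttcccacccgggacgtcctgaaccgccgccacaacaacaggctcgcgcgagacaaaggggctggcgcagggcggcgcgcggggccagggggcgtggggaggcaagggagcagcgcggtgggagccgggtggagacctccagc
The single run of capitals in Cybb holds both motifs, read on the opposite strand as TTTCATTTCC and TTCCTC, which overlap and begin 4 and 10 bases after the start. Of 32851 windows of this length, 28.3% held GAGGAA, 2.72% held the composite element and 1.08% held both. Neither motif was found in the Cyba, Ncf1 or Nox4 window. The Cybb window was poor in G and C (35.3%, 1 CpG) and the Nox4 window was rich in them (68.3%, 24 CpG), against a median of 52.7% over all windows.

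In untreated cultures every one of these genes was expressed at a low level. Levels between genes were compared as RPKM, which scales reads to exon length and library size. At 6 h Rac2 stood at 1.81 ± 0.604 and Cyba at 1.78 ± 0.323 RPKM (SD, n = 4), and these did not differ beyond their spread. Cybb followed at 0.722 ± 0.324, with all of its libraries below the lowest of Cyba (1.53) and Rac2 (1.29). Ncf1 (0.252 ± 0.0929), Ncf4 (0.196 ± 0.114) and Nox4 (0.101 ± 0.017) had lower means still, and Ncf4 overlapped both of its neighbours. Cybb and Ncf1 overlapped slightly, with the lowest Cybb library at 0.341 and the highest Ncf1 library at 0.362. At 5 d the order of the means was Cyba (2.38 ± 0.922), Rac2 (1.18 ± 0.194), Cybb (0.354 ± 0.0986), Ncf1 (0.269 ± 0.0572), Ncf4 (0.072 ± 0.0266) and Nox4 (0.0541 ± 0.0144). Cyba no longer overlapped Rac2, while Cybb again overlapped Ncf1, and Ncf4 again overlapped Nox4.

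**Figure D1:**
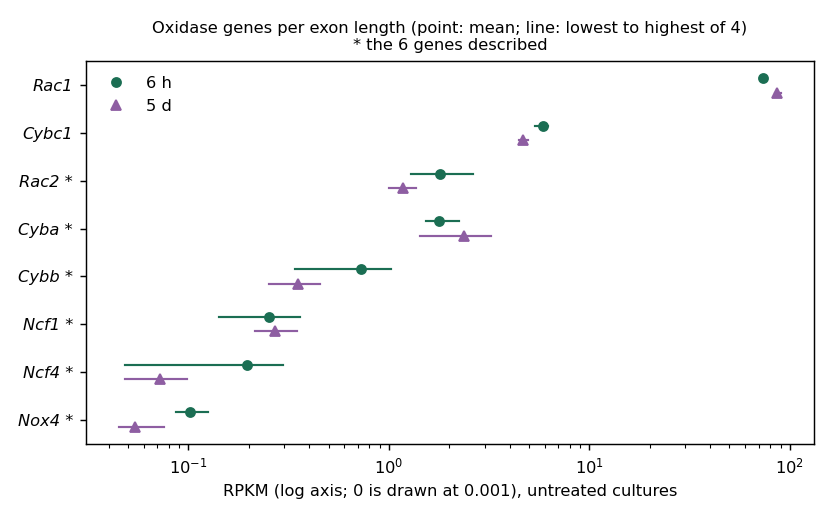
Levels of the 6 genes, with Rac1 and Cybc1 for scale, in untreated cultures as RPKM on a log axis, with circles for 6 h and triangles for 5 d, points for the mean and lines from the lowest to the highest of 4 libraries. The 6 genes described, marked by asterisks, span from Rac2 and Cyba at the top to Nox4, all far below Rac1.

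Oxidase genes outside the 6 give the scale. Rac1, the Rac protein found in most cell types, stood at 73.6 ± 1.5 RPKM at 6 h and 86.3 ± 3.14 at 5 d in untreated cells. Cybc1, which encodes the chaperone of the gp91phox and p22phox pair, stood at 5.85 ± 0.375 and 4.67 ± 0.202. Reads behind the 6 genes were correspondingly few, from 61 to 379 per library for Cybb and 123 to 375 for Rac2. Cyba had 36 to 199 reads, Ncf1 16 to 88, Nox4 13 to 74 and Ncf4 only 3 to 27, out of 24514090 to 73626029 assigned reads per library.

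Cybb, the catalytic subunit, spanned the widest range in CPM of the 6 genes at 6 h. The levels below are in CPM (reads scaled to the assigned reads of the library), in the order of replicates 1 to 4. Untreated cultures held 5.94, 1.98, 3.29 and 5.57 CPM. After miR-92a-1-5p the values were 7.18, 8.25, 9.16 and 2.91 CPM. The 3 highest libraries of this exposure lay above every untreated library, and the fourth lay within the untreated range, so the groups overlapped. The miR-124-5p libraries held 7.12, 5.62, 3.15 and 4.55 CPM. The Mut.oligo libraries held 6.28, 7.23, 5.68 and 7.14 CPM. The Mut.oligo values were the tightest of the 4 groups and overlapped the untreated ones only at their lower end. As group means, untreated cells had 4.19 ± 1.88 CPM of Cybb, miR-92a-1-5p cells 6.87 ± 2.77, miR-124-5p cells 5.11 ± 1.68 and Mut.oligo cells 6.58 ± 0.738 (SD, n = 4).

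**Figure D2:**
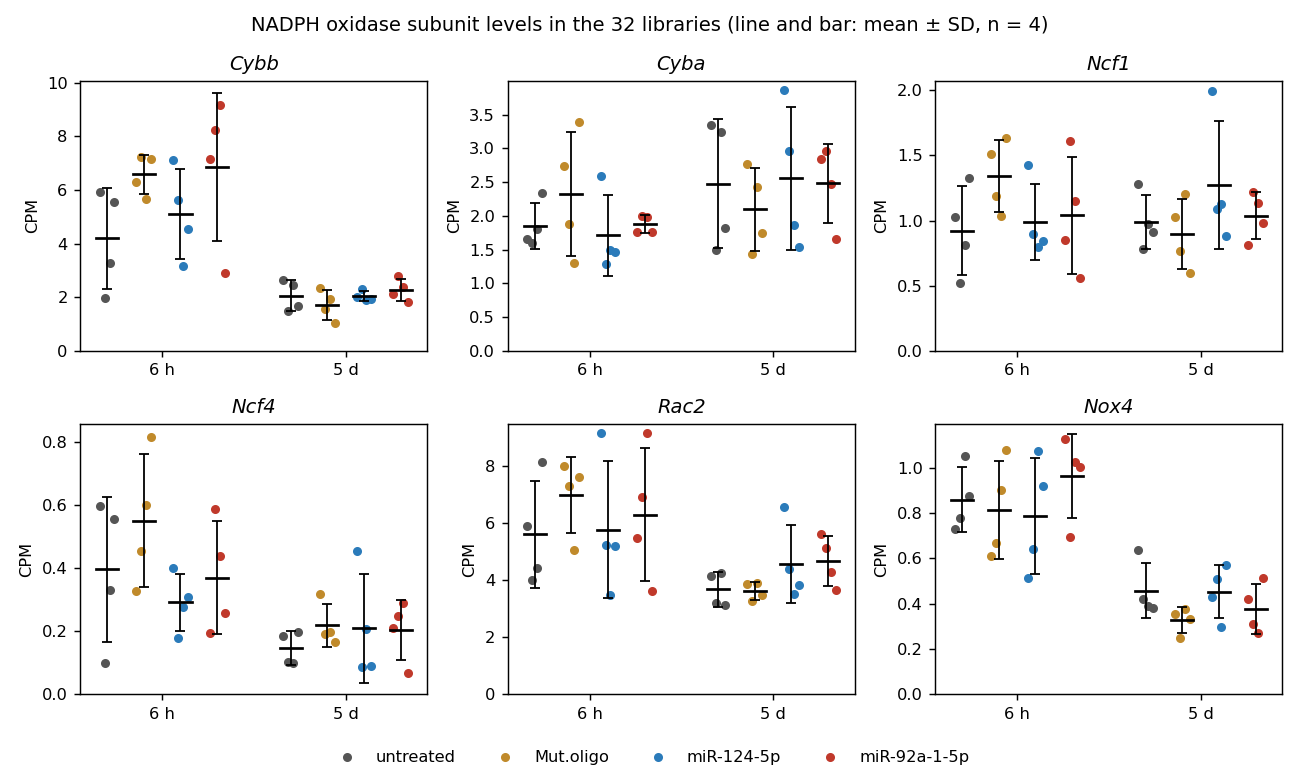
CPM of each gene in every library, by treatment and time, with points for libraries, horizontal lines for means and bars for the SD of 4 libraries. Cybb values at 6 h spread from 1.98 to 9.16 CPM and those at 5 d lay between 1.02 and 2.79 CPM.

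Much of that spread ran with the experiment batch, as the values within batches show. In batch A at 6 h, Cybb was at 3.29 CPM in untreated and 7.18 CPM in miR-92a-1-5p cells. In batch B it was at 1.98 and 2.91 CPM, in batch C at 5.94 and 8.25 CPM, and in batch G at 5.57 and 9.16 CPM. The miR-92a-1-5p library was the higher one in 4 of 4 batches, with log2 differences of 1.13, 0.55, 0.47 and 0.72. The low miR-92a-1-5p library (2.91 CPM) and the lowest untreated library were thus the pair of batch B. For miR-124-5p the differences within batches A and G were 0.47 and 0.36, and for Mut.oligo they were -0.06 in batch C and 0.17 in batch G. The 2 highest Mut.oligo libraries came from batches without an untreated library.

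In the edgeR fit of the 4 groups at 6 h without a covariate, the log2 fold change of Cybb against untreated was 0.70 ± 0.34 (SE) for miR-92a-1-5p, 0.27 ± 0.35 for miR-124-5p and 0.64 ± 0.35 for Mut.oligo. With the batch as a covariate these became 0.71 ± 0.11, 0.18 ± 0.14 and 0.21 ± 0.14. Batch D held only miR-124-5p replicate 3 and batch F only Mut.oligo replicate 4. These libraries do not inform the differences fitted with the batch. The miR-92a-1-5p value held while its error shrank, and the Mut.oligo value moved to about the size of the miR-124-5p value. Against Mut.oligo, the Cybb difference of miR-92a-1-5p was 0.06 ± 0.34 without and 0.50 ± 0.13 with the covariate, and against miR-124-5p it was 0.43 ± 0.34 and 0.53 ± 0.13. These comparisons share libraries and are not separate evidence.

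A gene was called at a Benjamini-Hochberg adjusted p under 0.05 over all genes tested where the log2 fold change also lay beyond -0.5 or 0.5. Without a covariate, 0 of the 6 genes were called for miR-92a-1-5p against untreated at 6 h, against a background of 0% of 18755 genes, and 0 of the 6 had an unadjusted p under 0.05, as 4.75% of all genes did. With the batch covariate 1 of 6 was called, Cybb in the higher direction, against 0.208% of all genes in either direction and 0.0746% in the higher one. DESeq2 without a covariate called 0 of 6 and 0% of all genes, and DESeq2 with the batch also called Cybb alone, against 0.139% of all genes and 0.0427% in the higher direction. Leaving out each of the 8 libraries of these groups from the batch fit in turn kept the call in 4 of 8 fits, with log2 fold changes from 0.60 to 0.82. The call was lost without untreated replicate 2, 3 or 4 or miR-92a-1-5p replicate 4.

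**Figure D3:**
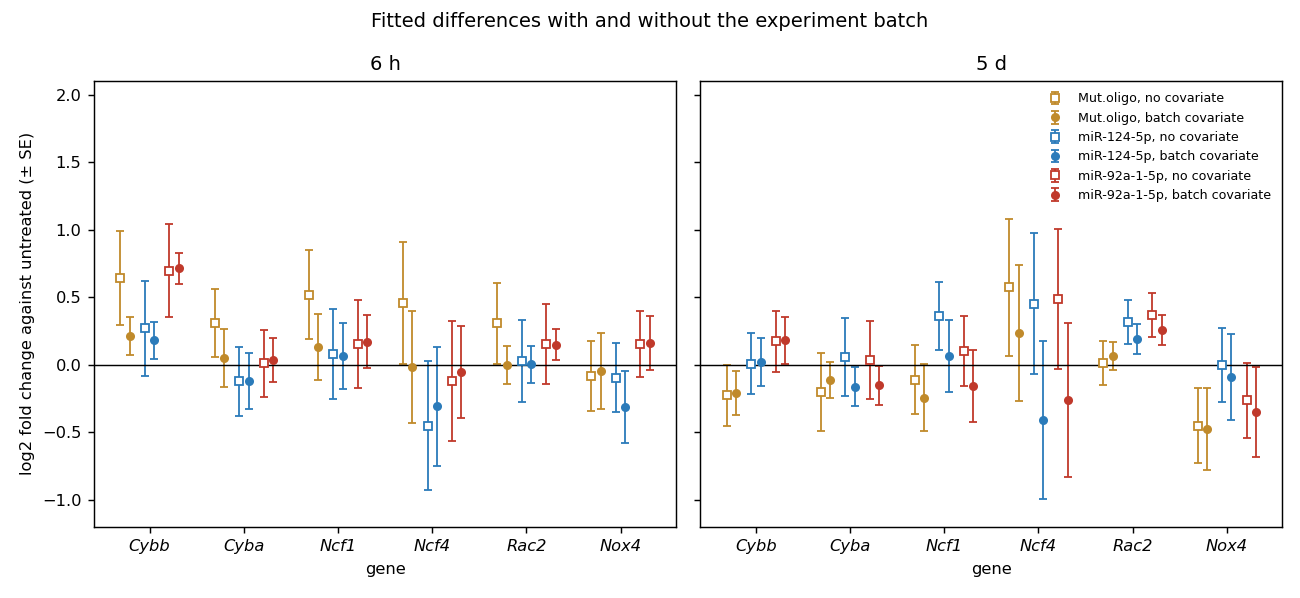
Log2 fold changes against untreated cells with their SE, for 6 h and 5 d, from the edgeR fit without (open squares) and with the batch covariate (filled circles). At 6 h the Cybb value after miR-92a-1-5p stays at 0.70 and 0.71, and that after Mut.oligo moves from 0.64 to 0.21.

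After miR-92a-1-5p at 6 h, the partner and cytosolic subunits showed smaller differences from untreated cells than Cybb did. Cyba, whose product p22phox stabilises both gp91phox and Nox4, stood at 1.66, 1.59, 1.81 and 2.33 CPM in untreated cells and at 1.76, 2.00, 1.98 and 1.75 CPM after miR-92a-1-5p. Its log2 fold change was 0.01 ± 0.25 without and 0.04 ± 0.17 with the batch, near 0 in both fits. Within batches the Cyba differences for miR-92a-1-5p were -0.04, 0.14, 0.27 and -0.24. Its fold change was 0.31 ± 0.25 for Mut.oligo and -0.12 ± 0.26 for miR-124-5p, and both groups overlapped the untreated one.

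Ncf1, whose product p47phox organises the cytosolic subunits, stood at 1.03, 0.519, 0.815 and 1.33 CPM in untreated cells and at 0.852, 1.61, 1.15 and 0.557 CPM after miR-92a-1-5p. Its libraries were ordered much like those of Cybb, with the lowest of each group again in batch B. The log2 fold change was 0.15 ± 0.32, and it was 0.52 ± 0.33 for Mut.oligo and 0.08 ± 0.33 for miR-124-5p. With the batch these were 0.17 ± 0.20, 0.13 ± 0.24 and 0.06 ± 0.25. An exon of Ncf1 overlaps Gtf2ird2 on the opposite strand, and reads were counted by strand.

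Ncf4, whose product p40phox binds phosphoinositides on phagosomes, was the least certain of the 6. Its untreated libraries at 6 h held 18, 3, 11 and 21 reads, and those of miR-92a-1-5p 7, 27, 18 and 19 reads. The log2 fold changes were -0.12 ± 0.45 for miR-92a-1-5p, -0.45 ± 0.48 for miR-124-5p and 0.46 ± 0.45 for Mut.oligo, each no larger than about its SE. Within batches, miR-92a-1-5p against untreated ran from -0.79 to 1.41, so no direction can be read.

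Rac2, the Rac protein of blood cells, stood at 5.90, 3.99, 4.41 and 8.14 CPM in untreated cells and at 5.47, 6.90, 9.16 and 3.63 CPM after miR-92a-1-5p. It was higher in 3 of 4 batches, with differences of 0.31, -0.14, 0.22 and 0.17 in batches A, B, C and G. The log2 fold change was 0.15 ± 0.30 without and 0.15 ± 0.11 with the batch. For Mut.oligo it was 0.31 ± 0.30 and for miR-124-5p 0.03 ± 0.30, and with the batch -0.00 ± 0.14 and 0.00 ± 0.14.

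Nox4 stood at 0.730, 0.779, 1.06 and 0.875 CPM in untreated cells at 6 h. After miR-92a-1-5p it was at 1.13, 0.697, 1.03 and 1.01 CPM, with a log2 fold change of 0.15 ± 0.24. The values for miR-124-5p (-0.09 ± 0.25) and Mut.oligo (-0.08 ± 0.26) were also within their SE. Over all 3 oligoribonucleotides at 6 h, the 6 genes had a median log2 fold change of 0.15 with miR-92a-1-5p, -0.03 with miR-124-5p and 0.38 with Mut.oligo, beside medians of 0.01, -0.00 and -0.00 over all genes tested. With the batch, the 6 genes had medians of 0.16, -0.06 and 0.02. The 5 phagocyte subunits alone had medians of 0.15, 0.03 and 0.46, and with the batch 0.15, 0.00 and 0.05.

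For miR-124-5p and Mut.oligo at 6 h, 0 of the 6 genes were called by edgeR without the batch (0% of all genes in both) or with it (0% and 0.0213%), and 0 by DESeq2 without the batch (0% and 0.0533%, the latter 0.0267% in each direction) or with it (0.00533% and 0.0427%). At an unadjusted p under 0.05 none of the 6 passed in these edgeR fits, beside 4.54% and 9.49% of all genes without and 5.79% and 8.47% with the batch. In the 3 comparisons between oligoribonucleotides at 6 h, 0 of 6 were called by edgeR with or without the batch (0% of all genes in each). DESeq2 without the batch called 0 of 6 and 0% of all genes in each. With the batch it also called 0 of 6, against 0.00533% of all genes for miR-92a-1-5p against either of the others and 0% for the third comparison. With the batch in edgeR, 1 of 6 had an unadjusted p under 0.05 for miR-92a-1-5p against Mut.oligo (2.8% of all genes) and against miR-124-5p (5.24%), and 0 did for miR-124-5p against Mut.oligo (4.38%).

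**Figure D4:**
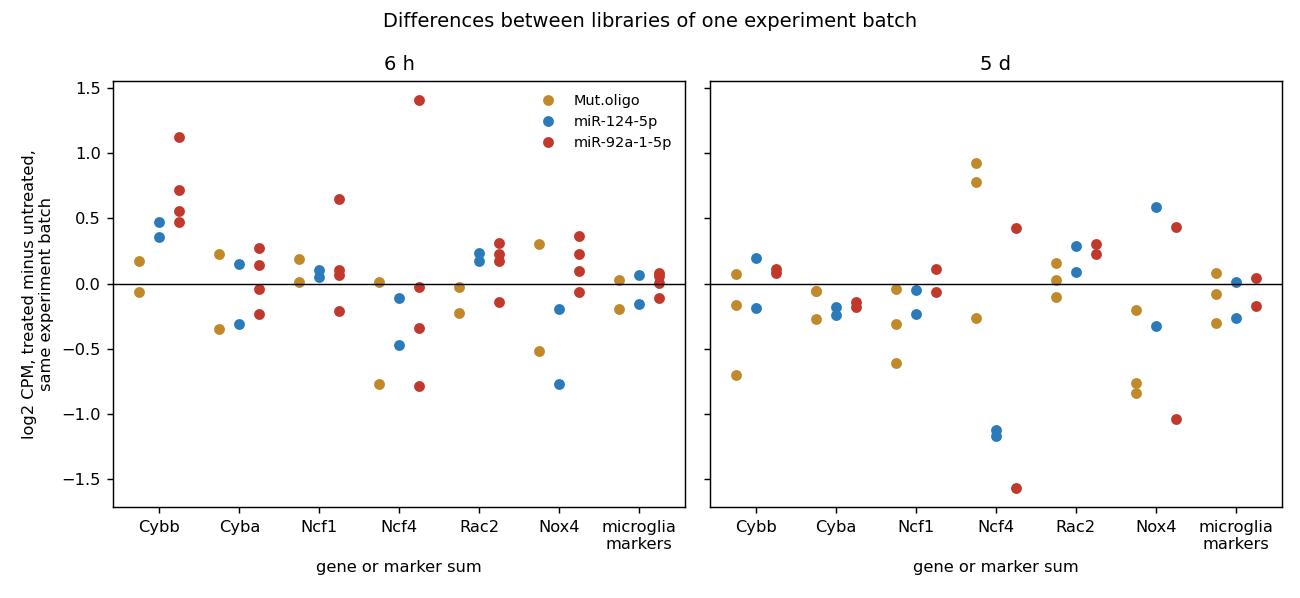
Log2 CPM difference between a treated and an untreated library of the same experiment batch, for the 6 genes and the sum of 16 microglia markers, at 6 h and 5 d. At 6 h the 4 miR-92a-1-5p points for Cybb lie between 0.47 and 1.13, and those for the microglia markers between -0.11 and 0.08.

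The cultures were checked for the cells that make a phagocyte oxidase. The sum of 10 neuron markers lay between 4736 and 6286 CPM over the 32 libraries, led by Map2, Tubb3 and Syt1, as the label of the cultures says. The sum of 16 microglia markers, C1qb and C1qc among the highest, lay between 27.0 and 49.6 CPM at 6 h and between 40.3 and 79.4 CPM at 5 d. Csf1r, Tmem119 and Aif1 were detected in every library, and P2ry12 was at 0 in 2 libraries and Siglech in 24. The sum of 7 border macrophage markers, led by Ms4a7, lay between 1.27 and 3.51 CPM. Of 8 granulocyte markers S100a9 was at 0 in all libraries and the sum was at most 0.669 CPM. Fewer cells of a type and less RNA per cell cannot be told apart in these bulk libraries.

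Microglia marker RNA did not follow the Cybb difference at 6 h. Its summed level ranged from 29.6 to 45.2 CPM in untreated, 29.8 to 47.0 CPM in miR-92a-1-5p, 27.0 to 47.4 CPM in miR-124-5p and 28.1 to 49.6 CPM in Mut.oligo cells. Within the 4 batches shared by untreated and miR-92a-1-5p cells the sum differed by -0.11, 0.01, 0.08 and 0.06 on the log2 scale. Cybb per microglia marker sum was accordingly higher after miR-92a-1-5p in each of these batches, by 1.24, 0.55, 0.39 and 0.66. Over all libraries the mean log2 ratio was -3.20 ± 0.62 in untreated, -2.49 ± 0.59 in miR-92a-1-5p, -2.74 ± 0.37 in miR-124-5p and -2.58 ± 0.30 in Mut.oligo cells (SD, n = 4). The ratios of miR-92a-1-5p and untreated cells overlapped, again through batch B. Of the 15 microglia markers that passed the filter, 0 were called against untreated in any of the 6 comparisons, with or without the batch, by edgeR or DESeq2. In any of these fits at most 118 of 19333 genes were called, so a count of 0 among 15 markers tells little.

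**Figure D5:**
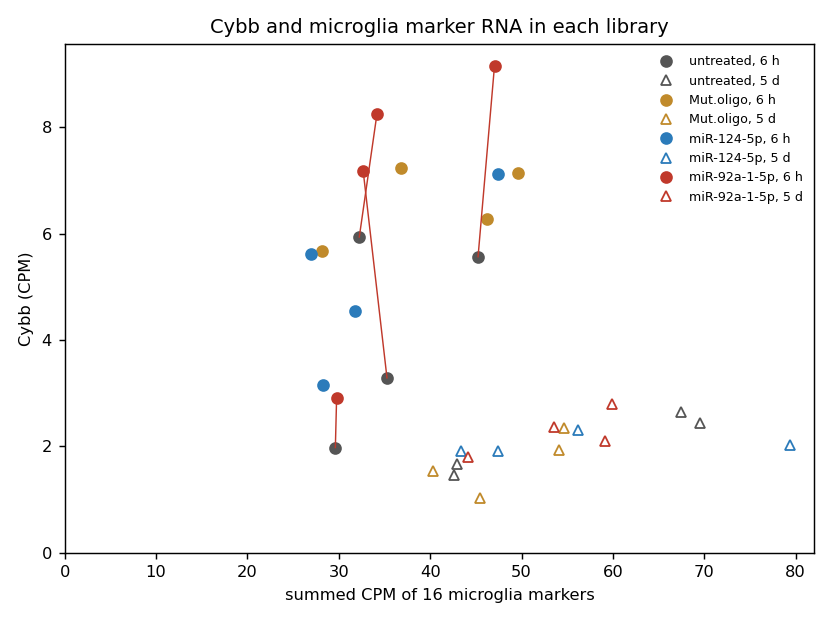
Cybb in CPM against the summed CPM of 16 microglia markers in every library, with filled circles for 6 h, open triangles for 5 d, and lines joining the untreated and miR-92a-1-5p libraries of one batch at 6 h. The joined pairs rise in Cybb by 0.47 to 1.13 on the log2 scale with little shift along the marker axis, and the 5 d libraries lie to the lower right.

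After 5 d Cybb was low in every group. Untreated cultures held 2.64, 1.47, 2.44 and 1.67 CPM, miR-92a-1-5p 2.1, 2.79, 2.37 and 1.80 CPM, miR-124-5p 2.02, 2.31, 1.91 and 1.91 CPM, and Mut.oligo 2.35, 1.55, 1.94 and 1.02 CPM. All 3 exposed groups overlapped the untreated one. The log2 fold changes were 0.17 ± 0.22, 0.01 ± 0.23 and -0.23 ± 0.23 in that order, and 0.18 ± 0.17, 0.02 ± 0.18 and -0.21 ± 0.16 with the batch. Batch B of 5 d held only untreated replicate 3, which does not inform the differences fitted with the batch. Within the 2 batches shared with untreated cells, C and E, the miR-92a-1-5p differences were 0.11 and 0.08. The difference between the miR-92a-1-5p effect at 5 d and at 6 h was -0.52 ± 0.43 without and -0.53 ± 0.21 with the batch, and it was not called in either fit.

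Rac2 had values above 0 for both miRNAs at 5 d. It stood at 4.13, 3.18, 4.24 and 3.12 CPM in untreated cells, 5.62, 5.11, 4.27 and 3.65 CPM after miR-92a-1-5p, and 6.56, 4.39, 3.51 and 3.81 CPM after miR-124-5p. The exposed libraries lay toward the upper part of the range and overlapped the untreated ones. The log2 fold changes were 0.37 ± 0.16 for miR-92a-1-5p, 0.32 ± 0.16 for miR-124-5p and 0.01 ± 0.16 for Mut.oligo, and with the batch 0.26 ± 0.11, 0.19 ± 0.11 and 0.07 ± 0.10. Within batches C and E, Rac2 was higher by 0.23 and 0.31 after miR-92a-1-5p and by 0.29 and 0.09 after miR-124-5p.

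Nox4 at 5 d stood at 0.639, 0.422, 0.391 and 0.380 CPM in untreated cells and at 0.356, 0.248, 0.377 and 0.330 CPM after Mut.oligo. These were the only groups among the 12 comparisons that did not overlap for any of the 6 genes. Every Mut.oligo library lay below every untreated one, against 1.47% of all genes not overlapping in this direction. With 6 genes looked at in each of 12 comparisons, 1 such separation carries no weight. The counts behind it were 20 to 38 and 13 to 21 reads per library, and the log2 fold change was -0.45 ± 0.28. Within batches C, E and F the Mut.oligo differences were -0.20, -0.84 and -0.77. For miR-92a-1-5p they were 0.43 and -1.04 in batches C and E, with a fold change of -0.27 ± 0.28. The summed level of 9 mural cell and fibroblast markers, cells in which Nox4 is found, differed by -0.06, -0.39 and -0.22 in the same Mut.oligo batches. A link between this sum and the Nox4 values was not tested. Counting each marker once per comparison over the 6 comparisons with untreated, edgeR with the batch made 4 calls among these markers, 3 among endothelial markers and 7 among oligodendrocyte lineage markers, all lower and all at 5 d, such as Tagln, Kdr and Pdgfra after each of the 3 exposures. Neuron, astrocyte, microglia, border macrophage and granulocyte markers had 0 calls in that fit, and no marker list had any in edgeR without the batch. At most 68 of 19333 genes were called in any comparison with untreated in edgeR with the batch. DESeq2 made 0, 2 and 2 such calls for mural and fibroblast, endothelial and oligodendrocyte lineage markers without the batch and 6, 3 and 10 with it.

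The remaining subunits lay near the untreated level or differed in sign between fits at 5 d. Cyba ranged from 1.43 to 3.86 CPM over all 16 libraries of 5 d, with log2 fold changes of 0.04 ± 0.29, 0.06 ± 0.29 and -0.20 ± 0.29 in the same order, and with the batch -0.15 ± 0.14, -0.16 ± 0.14 and -0.11 ± 0.13. Within batches the exposed library had the lower Cyba level in 2 of 2 batches for each miRNA and 3 of 3 for Mut.oligo, with log2 differences from -0.05 to -0.27, where pairs of a batch share their untreated library. Ncf1 ranged from 0.595 to 2.00 CPM, with 0.10 ± 0.26, 0.36 ± 0.25 and -0.11 ± 0.26, and with the batch -0.16 ± 0.27, 0.06 ± 0.27 and -0.25 ± 0.25. Its level was lower than untreated in 1 of 2 batches after miR-92a-1-5p, 2 of 2 after miR-124-5p and 3 of 3 after Mut.oligo. Ncf4 had 3 to 20 reads per library and fold changes of 0.48 ± 0.52, 0.45 ± 0.52 and 0.57 ± 0.51. With the batch the first and second of these turned to -0.26 ± 0.57 and -0.41 ± 0.58. For miR-92a-1-5p against untreated, 5 of the 6 genes had a value above 0 without the batch (median 0.14) and 2 of 6 with it (median -0.16). The 5 phagocyte subunits alone had medians of 0.17 without and -0.15 with the batch. In all 6 comparisons of 5 d, 0 of the 6 genes were called by edgeR, against 0.00517% of 19333 genes for miR-92a-1-5p against untreated and 0% in the others. With the batch the count was again 0, against 0.352% for miR-92a-1-5p, 0.0259% for miR-124-5p and 0.0466% for Mut.oligo against untreated, and against 0.0103% for miR-92a-1-5p compared with either other oligoribonucleotide. DESeq2 also called 0 of 6 without the batch, where 0.15% of all genes were called for miR-92a-1-5p and 0.0155% for Mut.oligo against untreated and 0% in the others, and 0 of 6 with it, where 0.61%, 0.0879% and 0.0879% of all genes were called against untreated and 0.0672%, 0.0517% and 0% between oligoribonucleotides. At an unadjusted p under 0.05, 1 of 6 passed for miR-92a-1-5p against untreated (3.63% of all genes without and 10.8% with the batch) and against Mut.oligo (1.98% and 8.87%), in both fits, and 0 passed in the other comparisons of 5 d.

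The larger contrast was between the times, in untreated cells. Cybb went from 4.19 ± 1.88 to 2.05 ± 0.573 CPM, Rac2 from 5.61 ± 1.87 to 3.67 ± 0.601, Nox4 from 0.860 ± 0.144 to 0.458 ± 0.122 and Ncf4 from 0.396 ± 0.231 to 0.145 ± 0.0537 (SD, n = 4). Their log2 fold changes, 5 d against 6 h, were -1.05 ± 0.31, -0.63 ± 0.25, -0.92 ± 0.26 and -1.43 ± 0.50. Cyba and Ncf1 did not share this, with values of 0.39 ± 0.28 and 0.08 ± 0.30. As a description, 4 of 6 were called lower, 3 of them among the 5 phagocyte subunits, where 14.3% of 20425 genes were called lower, 19.1% higher and 33.5% in either direction. The libraries of 6 h and 5 d share no batch, so time in culture and batch cannot be told apart. Without untreated replicate 1 or replicate 4 of 6 h, 2 of 6 remained called, Cybb and Nox4, and Rac2 was also lost without replicate 1, 2 or 4 of 5 d.

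Of these, only Nox4 separated the untreated groups completely, with all libraries of 5 d below those of 6 h, as 23.3% of all genes did in this direction. In all 3 exposed groups Cybb was lower in every library of 5 d than in every library of 6 h, while the untreated groups overlapped through the batch B library. Nox4 was likewise lower in every library after miR-92a-1-5p and Mut.oligo, and Ncf4 and Rac2 after Mut.oligo, where 27.3% (miR-92a-1-5p), 20.9% (miR-124-5p) and 25.5% (Mut.oligo) of all genes lay wholly lower at 5 d. Microglia marker RNA went the other way, with a mean sum of 35.6 ± 6.83 CPM at 6 h and 55.6 ± 14.8 CPM at 5 d in untreated cells. Of 15 tested markers 3 rose in edgeR's quasi-likelihood test, among them Csf1r (0.63 ± 0.26, adjusted p = 0.0391) and Cx3cr1, and 0 fell. Among the other marker lists, 7 of 7 astrocyte markers rose, 1 of 6 tested border macrophage markers (Mrc1) rose, and 0 of 1 tested granulocyte marker (Csf3r) was called. Neuron markers rose in 2 and fell in 2 of 10, mural cell and fibroblast markers in 3 and 2 of 9, endothelial markers in 1 and 0 of 7, and oligodendrocyte lineage markers in 0 and 2 of 7. The log2 ratio of Cybb to the sum thus went from -3.20 ± 0.62 to -4.76 ± 0.10 in untreated cells, and the groups did not overlap. In the other groups it lay between -3.36 and -2.05 at 6 h and between -5.47 and -4.42 at 5 d.

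The 6 genes were also compared across libraries, separately for the 16 of each time, which share batches and groups. Cybb varied with Rac2 (Pearson r 0.84 at 6 h and 0.54 at 5 d) and Ncf1 (0.83 and 0.64), and Ncf1 with Rac2 (0.86 and 0.63). Cyba followed the microglia marker sum most closely (0.91 and 0.97), with Rac2 next (0.85 and 0.83), Ncf1 (0.72 and 0.72) and Cybb (0.54 and 0.65). Other marker sums ran with them too, with r for Cyba of 0.75 and 0.87 with astrocyte and -0.47 and -0.87 with neuron markers, and for Cybb of -0.06 and 0.62 with astrocyte markers. Nox4 stood apart, at -0.15 and 0.23 with the microglia sum and between -0.43 and 0.20 with Cybb, Cyba, Ncf1 and Rac2. With Ncf4, which had few reads, it was at -0.00 and -0.46.

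The genes most like each member were ranked by the lower of the r values at 6 h and 5 d over 17906 genes. They showed the same division most clearly for Cybb, Rac2 and Ncf1. For Cybb they were Lyz2 (0.84 and 0.84), Cd53, Clec12a, Tyrobp and Rassf4. For Rac2 they were Laptm5 (0.90 and 0.87), C1qc, Slc15a3, Tnfrsf1b and C1qb, and for Ncf1 they included Slc11a1 (0.88 and 0.85), C1qb, Aif1 and Tspo. For Cyba they were Ltbp3 (0.87 and 0.87), Ak7, C1qa, Nxn and C1qb. Lysozyme 2, the complement C1q chains, Aif1 and Tyrobp are well-known microglia and macrophage genes. Of the genes most like Cyba, only C1qa and C1qb are in the microglia marker list, while Ltbp3, Ak7 and Nxn are in none of the marker lists. The likeness was weaker for Ncf4, led by Slc11a1 (0.66 and 0.61) before Gm20492, Immp2l, Siglece and Gabrd, and for Nox4, led by Mmel1 (0.65 and 0.61) before Ccdc138, Slc10a3, Ifnar1 and Gm44878.

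No gene around the oxidase was called after any oligoribonucleotide. Among 15 other oxidase genes, of which Rac1, Poldip2 and Rap1a were highest, 11 were tested at 6 h or 13 at 5 d, and 0 were called against untreated in the 6 comparisons. Among 26 receptors and kinases upstream of the oxidase, led by Prkcb, Prex1 and Pik3cd, 0 were called, and likewise 0 of 10 transcription factors (Rela and Nfkb1 among the highest) and 0 of 26 antioxidant and NADPH supply genes (Idh1, Prdx2 and Prdx1 highest). These counts were 0 in edgeR with and without the batch and in DESeq2 with and without it. At most 118 of 19333 genes were called in any of these fits, so counts of 0 in lists of this size tell little. At an unadjusted p under 0.05, at most 1, 1, 2 and 2 genes of these lists passed in a single comparison without the batch, and at most 2, 7, 2 and 6 with it. Over all genes, 2.6% to 9.49% passed in a comparison without the batch and 4.2% to 13.4% with it. The counts of 7 of 26 and 6 of 26 with the batch thus lay above every such share, and the lists were not tested as sets. The list medians without the batch lay between -0.02 and 0.12, 0.01 and 0.19, -0.05 and 0.17, and -0.06 and 0.00 on the log2 scale, beside -0.00 to 0.01 over all genes.

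Between the times the same lists moved in both directions in untreated cells. Their counts stand beside the 19.1% of all genes called higher and 14.3% called lower. Of 13 tested oxidase genes 4 rose and 2 fell, among them Hvcn1, the proton channel that balances the charge the oxidase moves (2.83 ± 0.30, adjusted p = 3.57e-09), Duox2 (3.13 ± 0.43, adjusted p = 3.48e-07) and Arhgdib, an inhibitor of GDP release from small GTPases (-1.30 ± 0.10, adjusted p = 6.10e-12) in edgeR's quasi-likelihood test. Duox2 lay at only 0.00479 to 0.0274 RPKM in untreated libraries of 6 h, so its fold change starts near the floor. Of 26 receptors and kinases 6 rose, such as Prkcb (1.37 ± 0.12, adjusted p = 8.32e-11), and 6 fell, such as Was (-1.61 ± 0.42, adjusted p = 0.00192) in the same test. Of 10 transcription factors 4 rose (Irf8, Cebpa, Cebpb and Runx1) and 0 fell, and Spi1, which encodes PU.1, had a value of -0.74 ± 0.34 that did not pass (adjusted p = 0.0651, edgeR). Of 26 antioxidant and NADPH supply genes 7 rose and 1 fell, led by the cystine transporter gene Slc7a11 (3.35 ± 0.32, adjusted p = 4.11e-10, edgeR), which went from 10.9 ± 1.97 to 113.1 ± 46.6 CPM. The medians of the 4 lists were 0.17, 0.25, 0.33 and 0.24, beside 0.04 over all genes tested.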

How the data were processed

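Total RNA of 32 neuron cultures was sequenced by the authors as stranded mRNA libraries (75 bp single-end reads), mapped to GRCm38 with STAR 2.7.3a and assigned to genes with featureCounts 2.0.0, strand-specifically. The deposited values are raw counts per gene for each library, with Ensembl identifiers, of which 49326 of 49671 were given a symbol here. CPM and, from GENCODE M21 exon lengths, RPKM were computed from these counts. Genes that reached 5 counts in 3 or more libraries of the fit (18755 at 6 h, 19333 at 5 d, 20425 over both) were fitted in edgeR 4.0.16 (TMM, quasi-likelihood test, all groups together, no covariate, R 4.3.3), with DESeq2 1.42.0 and the batch covariate among the alternatives. SE is the fold change divided by the root of the F statistic. The edgeR and DESeq2 group fits without a covariate were tested on simulated data. Assigned reads were 24514090 to 73626029 per library, and counting error alone limits the low counts.

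The 6 genes, the gene lists and the marker lists were chosen with earlier results of these data known. From each list the 3 genes of highest mean CPM, genes called against untreated after an oligoribonucleotide and markers at 0 everywhere were named, and for each of the 6 genes the 5 most like it, except a few genes that are not reported here. Cybc1, Spi1, Duox2, Hvcn1 and the other genes named for the contrast of times, and the markers named outside these rules, were named after their values were seen. The promoter windows and the miRNA sequence are from RefSeq (GRCm38.p6), with 4 of the 6 genes matched.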

Additional observations from a re-analysis of the deposited data

Results flagged for a closer look

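In groups of 4, a library was set apart where its gap to the nearest other divided by the group's range exceeded Dixon's 95% critical value, which chance alone does in about 1 of 20 groups. Of 64 groups screened (CPM of the 6 genes, the Cybb ratio to microglia markers and the marker sum), 4 held such a library. Cyba (2.59 CPM, others 1.29 to 1.5) and Ncf1 (1.42 CPM, others 0.800 to 0.894) were both high in replicate 1 of miR-124-5p at 6 h, the library with the highest microglia marker sum of its group (47.4 CPM). Nox4 was high in replicate 1 of untreated cells at 5 d (0.639 CPM, others 0.380 to 0.422), one of the groups of the Mut.oligo comparison at 5 d. The log2 ratio of Cybb to microglia markers was low in replicate 1 of miR-124-5p at 5 d (-5.30, others -4.64 to -4.50), where the marker sum was the highest of all libraries (79.4 CPM).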

How the results depend on the processing

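The count of called genes among the 6 stayed at 0 in 11 of the 12 oligoribonucleotide comparisons under all 17 alternatives of each (size factors, filters, tools, the covariate, the threshold, the groups fitted, and leaving out each library). For miR-92a-1-5p against untreated at 6 h it was 1 with the batch covariate and 1 with DESeq2 and the batch, and leave-one-out fits gave 0 to 1, where the 1 came from batch fits added after seeing the data. For untreated 5 d against 6 h, 4 were called, 3 with at least 10 counts in every library (Ncf4 was then not tested), and 2 to 4 with one library left out. Interactions between time and exposure gave 0 with and without the batch. Counts over all genes moved with the batch: for miR-92a-1-5p against untreated from 0 to 39 at 6 h (26 with DESeq2 and the batch, 6 to 54 in the batch fits with one library left out) and from 1 to 68 at 5 d (118 with DESeq2 and the batch, 29 with DESeq2 alone, 0 to 27 with one library left out). Other counts over all genes at 6 h were 0, and became 4 for Mut.oligo with the batch (10 with DESeq2, 8 with DESeq2 and the batch) and 1 with DESeq2 and the batch for miR-124-5p against untreated and for miR-92a-1-5p against each of the others. At 5 d they became 5 for miR-124-5p and 9 for Mut.oligo with the batch, 17 for each with DESeq2 and the batch, and 13 and 10 with the latter for miR-92a-1-5p against Mut.oligo and against miR-124-5p. With at least 10 counts in every library, 4544 genes were called between the times against 6835, and 11167 without a minimum fold. Replicate numbers matched the batch labels only in part. At 6 h no exposed library shared a batch with the untreated library of its number. At 5 d replicate 4 of every group came from batch C, and untreated and Mut.oligo shared batches E and F in replicates 1 and 2. Deviations of same-numbered libraries correlated at -0.24 to 0.44, and those of same-batch libraries at 0.07 to 0.44. The numbers were therefore not taken to pair libraries. The replicate block gave 0 calls among the 6 in each oligoribonucleotide comparison and 4 between the times, with a Cybb value of 0.70 for miR-92a-1-5p at 6 h. Against untreated, the Cybb ratio to microglia markers for miR-92a-1-5p at 6 h was 0.71, and 0.74 with Csf1r as the denominator.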
